A study of Drosophila melanogaster with 3 samples.

Results

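Dek, fused to GFP at its C terminus, was mapped by chromatin immunoprecipitation followed by sequencing (ChIP-seq) with an antibody against GFP. The members described here are the 200 strongest of the 4736 peaks in the authors' list that passed their irreproducible discovery rate threshold, called IDR peaks below. They were chosen by the deposited signal value alone, with ties settled by chromosome and then start, and a peak's rank by that value is called its place. All 3 biological replicates formed 1 group, Dek-GFP embryo, which was made of whole fruit fly embryos (Drosophila melanogaster), 0 to 24 h old and of mixed sex. Each carried a stably inserted Dek-GFP transgene, and its chromatin had been sheared to fragments of 200 to 800 bp. No input or untagged library was among the samples, so every comparison below is between the 200 members and the other 4536 IDR peaks, or between the strongest and the weaker peaks of each replicate. Embryos of this age range hold many cell types, so a peak is an average over all of them.

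Dek is a conserved nuclear protein that binds DNA and histones. In mammals it is known to recognise the shape of DNA, such as supercoils and crossed helices, rather than 1 sequence, and in flies it has been described as a histone chaperone that works with the ecdysone receptor. A promoter is the stretch beside a transcription start site (TSS) where RNA polymerase is loaded. Promoters of fly genes that are active in most cells often carry sites such as the DRE or Motif 1, while regulated genes more often carry a TATA box.

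The member summits sat in a narrow trough of A and T bases, and some of them had G-rich words on both sides that pointed inwards. The first sequences show the members at places 2 and 3, and the member with the lowest GC content. None of these 3 holds the element described further on. In the sequences of this and the next 2 paragraphs the + strand of dm6 is printed from 5′ to 3′, and annotated UTR bases were left out. Capitals mark 3 things: the 11-base element described further on, CAGTGG reading towards the summit, and runs of 4 or more G reading towards the summit. Right of the summit, such words appear on the printed strand as CCACTG and as runs of C. The CG11050 member had its summit in an intron at base 126 of the window, ush, which encodes a cofactor of GATA factors, likewise in an intron at base 126, and koko between 2 divergent promoters at base 126.
CG11050, chr2L:6612582-6612832: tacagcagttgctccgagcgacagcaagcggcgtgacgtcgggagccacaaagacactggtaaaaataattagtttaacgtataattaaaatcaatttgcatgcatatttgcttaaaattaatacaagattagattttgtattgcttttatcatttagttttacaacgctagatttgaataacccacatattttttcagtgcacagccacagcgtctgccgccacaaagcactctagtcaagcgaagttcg
ush, chr2L:480956-481206: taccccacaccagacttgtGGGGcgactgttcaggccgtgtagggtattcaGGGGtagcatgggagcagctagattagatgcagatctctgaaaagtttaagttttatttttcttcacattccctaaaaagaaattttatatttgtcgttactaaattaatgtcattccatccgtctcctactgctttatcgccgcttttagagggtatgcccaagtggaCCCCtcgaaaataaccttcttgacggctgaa
koko, chr3R:18402764-18403014: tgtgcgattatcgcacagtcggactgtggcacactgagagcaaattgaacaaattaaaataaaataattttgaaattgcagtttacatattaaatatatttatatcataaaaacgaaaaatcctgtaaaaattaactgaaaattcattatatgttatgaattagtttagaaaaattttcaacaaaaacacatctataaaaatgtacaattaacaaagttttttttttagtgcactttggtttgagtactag

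The next sequences are members with the 11-base element, which is CTACGCC, then any 2 bases, then TG, on either strand. They are shown because, of the motifs counted here, the element had the largest ratio of members to other IDR peaks. The summit lay at base 89 of the window for CG14100, the strongest member of all, at base 99 for Tcs5, which shares its promoter with CHMP2B, and at base 126 for the others. CG9663 held it in an intron, amon, which encodes a proprotein convertase, and moody, which encodes a receptor of the blood-brain barrier, upstream of a TSS, and CG3552 at the promoter that it shares with CG3437. In these windows, moody excepted, the element lay outside a run of 4 or more C or G, which lay outside the A and T bases around the summit.
CG14100, chr3L:19590525-19590738: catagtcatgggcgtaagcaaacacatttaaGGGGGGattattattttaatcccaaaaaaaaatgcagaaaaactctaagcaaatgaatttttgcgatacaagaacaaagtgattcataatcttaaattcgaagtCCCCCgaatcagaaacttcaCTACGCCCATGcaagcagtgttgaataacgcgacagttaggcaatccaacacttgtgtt
Tcs5, chr3L:5139396-5139618: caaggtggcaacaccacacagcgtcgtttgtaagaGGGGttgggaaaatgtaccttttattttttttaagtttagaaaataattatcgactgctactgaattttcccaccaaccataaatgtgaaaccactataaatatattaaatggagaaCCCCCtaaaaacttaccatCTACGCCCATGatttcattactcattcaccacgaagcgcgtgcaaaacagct
CG9663, chr2L:3302048-3302298: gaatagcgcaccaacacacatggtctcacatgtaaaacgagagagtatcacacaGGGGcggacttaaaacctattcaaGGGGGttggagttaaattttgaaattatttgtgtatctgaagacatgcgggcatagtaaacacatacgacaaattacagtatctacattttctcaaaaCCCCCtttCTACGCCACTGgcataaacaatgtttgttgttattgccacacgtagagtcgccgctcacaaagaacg
amon, chr3R:26714250-26714500: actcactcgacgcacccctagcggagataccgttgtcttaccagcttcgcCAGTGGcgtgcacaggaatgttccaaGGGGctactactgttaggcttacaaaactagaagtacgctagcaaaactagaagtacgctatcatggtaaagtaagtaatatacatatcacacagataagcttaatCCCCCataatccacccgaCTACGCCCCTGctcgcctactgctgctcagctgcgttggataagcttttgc
CG3552, chr3L:9457678-9457911: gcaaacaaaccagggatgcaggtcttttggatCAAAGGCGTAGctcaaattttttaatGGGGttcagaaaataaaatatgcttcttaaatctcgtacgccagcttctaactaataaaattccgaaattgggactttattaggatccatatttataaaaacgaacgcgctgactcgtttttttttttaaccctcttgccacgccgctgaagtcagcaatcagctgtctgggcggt
moody, chrX:2050178-2050428: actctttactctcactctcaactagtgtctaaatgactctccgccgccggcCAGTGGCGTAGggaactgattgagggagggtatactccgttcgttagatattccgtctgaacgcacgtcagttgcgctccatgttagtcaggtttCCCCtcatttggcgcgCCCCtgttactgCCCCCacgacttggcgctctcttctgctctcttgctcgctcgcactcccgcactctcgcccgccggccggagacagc

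Shown last are members without the element that had CAGTGG facing inwards on both sides of the summit, which was base 126 of each window. CG1635 and RluA-1 were bound upstream of a TSS, and for, which encodes a cGMP-dependent protein kinase, in an intron.
CG1635, chr3R:31588418-31588668: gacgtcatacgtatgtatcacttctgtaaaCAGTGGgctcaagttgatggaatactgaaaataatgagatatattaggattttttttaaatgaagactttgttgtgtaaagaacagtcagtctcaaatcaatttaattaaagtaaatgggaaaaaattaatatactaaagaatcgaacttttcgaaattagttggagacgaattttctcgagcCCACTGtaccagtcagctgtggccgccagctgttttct
RluA-1, chr2L:10474413-10474663: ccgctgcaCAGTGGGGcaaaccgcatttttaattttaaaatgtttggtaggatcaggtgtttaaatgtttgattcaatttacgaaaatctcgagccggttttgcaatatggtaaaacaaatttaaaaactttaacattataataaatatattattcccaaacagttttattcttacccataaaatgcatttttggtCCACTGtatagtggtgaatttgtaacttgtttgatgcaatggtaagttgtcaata
for, chr2L:3655710-3655960: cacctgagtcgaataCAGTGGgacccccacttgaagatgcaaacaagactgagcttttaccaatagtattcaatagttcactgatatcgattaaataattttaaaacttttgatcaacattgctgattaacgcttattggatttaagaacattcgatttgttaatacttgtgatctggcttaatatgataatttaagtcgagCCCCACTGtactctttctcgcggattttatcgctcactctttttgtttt

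The member summits were flanked by words that the other IDR peaks held less often. All counts in this and the next 4 paragraphs are descriptions with no test, because the words were picked from these same peaks after their counts were seen. The 11-base element was found within 150 bp of the summit at 21 of 200 members (10.5%, exact 95% interval 6.62 to 15.6%), against 32 of 4536 other IDR peaks (0.706%). Among all IDR peaks it was found at 1.12%. The ratio of members to others was 14.9. Of 439532 windows of 301 bp that tile the 5 large arms, 0.149% held it, and 0.25% of the windows centred 500 bp from the member summits did. There were 694 copies in the 7 arms, of which 55 (7.93%) lay within 150 bp of an IDR summit and 21 (3.03%) of a member summit. So most copies in the genome had no IDR peak beside them. All intervals cover counting error only.

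The element did not lie on the summit. The centres of its 21 member copies were 43 to 143 bp away from it, with a median of 85 bp, and all 21 copies were over 40 bp away. All 21 were written so that GGCGTAG, the reverse complement of its first bases, read towards the summit, and 0 faced away. At the other IDR peaks 32 of 34 copies faced the summit. GGCGTAG, counted with or without the rest of the element, faced the summit within 150 bp at 24 members and away at 3. At the other IDR peaks it faced the summit at 43 and away at 26. These counts include the copies in the full element, nearly all of which faced the summit. So they show no direction for GGCGTAG outside the element. The element was at 17 promoter members and 4 intronic ones. On the far side of the summit, 15 of the 21 (71.4%) had a run of 4 G facing back at it, against 17 of 32 (53.1%) at the other IDR peaks. The members with it ran through the whole range of places. They were at CG14100 (place 1), Ugalt (place 5, a UDP-galactose transporter), Tcs5 (place 20), CG9663 (place 22), CG5611 (place 25), CG1888 (place 26) and mRpL23 (place 44, a mitochondrial ribosomal protein). They went on with amon (place 54), PIG-G (place 70), MFS10 (place 73), Hr3 (place 77, a nuclear receptor), CG3552 (place 81), Lamtor3 (place 83) and CG4496 (place 129). The last 7 were Hpf1 (place 143), moody (place 151), CG32486 (place 156), CG7737 (place 157), CG3009 (place 165), RpL34b (place 189, a cytosolic ribosomal protein) and CG32022 (place 195).

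The element was rarer past the members. It was at 7 of the 50 members in places 1 to 50, 6 in places 51 to 100, 2 in places 101 to 150 and 6 in places 151 to 200. Among the next 200 peaks, down to place 400, it was at 3 (1.5%), and in the last 1536 places at 7 (0.456%). With the summits and signal of each replicate's own list, the 200 strongest peaks held it in 9.5%, 8.5% and 10% of cases in replicates 1, 2 and 3. The weaker peaks of those lists, down to place 4736, held it in 0.661%, 0.573% and 0.794%. The strongest peaks had it more often in 3 of 3 replicates. These peaks held 160, 187 and 164 of the member summits, from which the element was picked. So the replicates lend it no independent support. The members with it had a GC content of 39.3% within 100 bp of the summit (SD 8.07, n = 21), against 32.4% (SD 5.97, n = 179) for the members without it.

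Short words faced the summit too. CAGTGG faced it within 150 bp at 53 members (26.5%, 20.5 to 33.2%) and faced away at 12 (6.0%). At the other IDR peaks it faced the summit at 554 (12.2%) and away at 243 (5.36%). Over all IDR peaks, 12.8% had it facing the summit. Both sides at once had it facing the summit at 17 members (8.5%), against 66 others (1.46%), and both sides had it facing away at 0 members and 5 others. These 17 pairs were 139 to 253 bp apart from centre to centre, with a median of 184 bp, and 12 of 17 lay 165 to 195 bp apart. The 66 pairs at the other IDR peaks had a median of 160 bp, and 12 of 66 were in that range. Of the 17 members, 12 were at promoters and 5 in introns. They were at CG1635, ph-p (place 39), RluA-1, MFS10, RapGAP1, NFAT, for, Rtnl1 (places 106 and 175), PAN3, bves, CG32176, CG8034, Pits, Glyp, CG31635 and prage. MFS10 was the only 1 of these 17 that also had the element, and the element and CAGTGG can share bases.

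A run of 4 G faced the summit at 84 members (42.0%, 35.1 to 49.2%) and faced away at 44 (22%). The other IDR peaks had 1358 (29.9%) facing and 1090 (24.0%) facing away, and 30.4% of all IDR peaks had 1 facing. The members differed among themselves: a run faced the summit at 38% of places 1 to 50, 60% of places 51 to 100, 40% of places 101 to 150 and 30% of places 151 to 200, and faced away at 18%, 22%, 16% and 32% in the same order. So the last 50 members had no more facing runs than all IDR peaks and slightly fewer facing than facing away. CAGTGG faced the summit at 26%, 26%, 30% and 24% of the same 4 sets of members, and at 18% of the next 200 peaks, down to place 400. The G runs were on both sides at 29 members (14.5%), against 165 others (3.64%). The facing runs were most frequent between 45 and 60 bp from the summit, where 13.0% of members had 1, against 4.14% of the others, while 2.0% of members had 1 facing away. In the replicates' own lists, CAGTGG faced the summit at 26.0% ± 0.5 of the 200 strongest peaks and 11.6% ± 0.646 of the weaker ones (SD, n = 3 replicates). It faced away at 5.67% ± 0.764 and 5.86% ± 1.11. The 4-G run faced the summit at 44.5% ± 1.0 of the strongest and 31.3% ± 3.11 of the weaker peaks, and away at 23.5% ± 4.77 and 26.2% ± 4.1. In each of the 3 replicates, both words faced the summit more often in the strongest peaks than in the weaker ones. These strongest peaks were largely the members from which the words were picked, so the replicates lend no independent support. Among all 6-base words, CAGTGG had the largest gap between facing and facing away at the members. Of the 200 members, 92 (46.0%) had neither CAGTGG nor a 4-G run facing the summit, against 2838 others (62.6%).

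**Figure D1:**
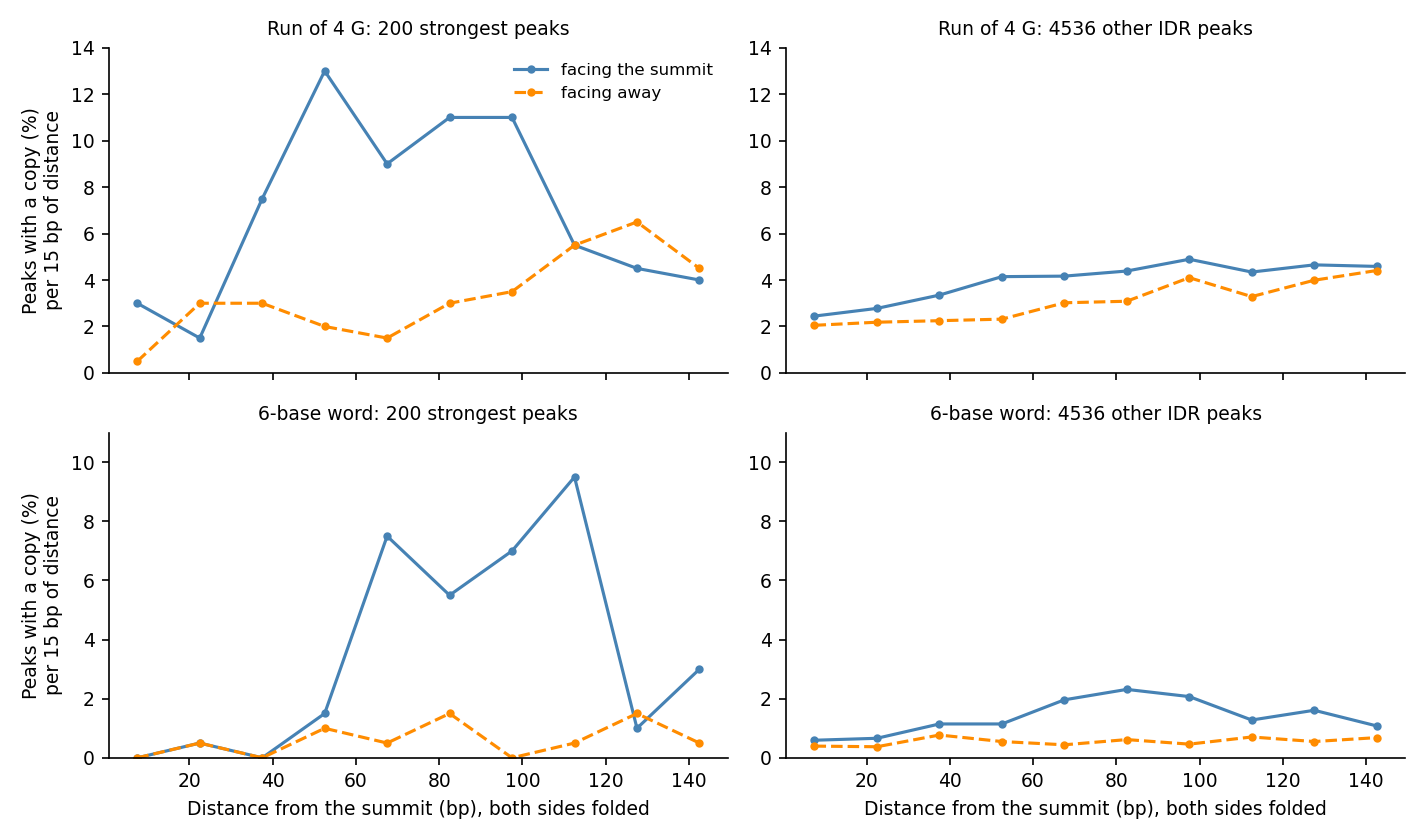
Share of peaks with a run of 4 G (top) or the 6-base word CAGTGG (bottom) by distance from the summit, for the 200 strongest peaks (left) and the 4536 other IDR peaks (right). Blue lines are copies that read towards the summit and orange dashed lines copies that read away, both sides of the summit together, in steps of 15 bp. In the 200 strongest peaks the facing 4-G runs reach 13.0% at 45 to 60 bp, against 4.14% in the other IDR peaks.

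**Figure D2:**
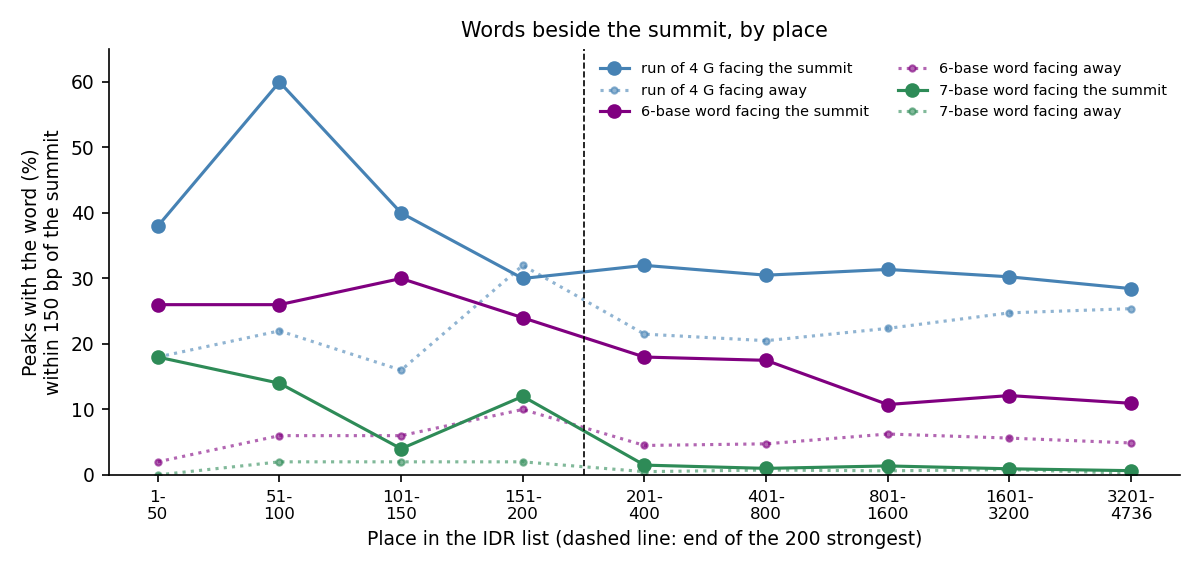
Share of peaks with each word within 150 bp of the summit (y axis, %) by place in the IDR list (x axis, strongest first). The 6-base word is CAGTGG and the 7-base word is GGCGTAG, the inner part of the 11-base element, with solid lines for words facing the summit and dotted lines for words facing away. The 7-base word faces the summit at 18% of the 50 strongest peaks and 1.5% of the next 200 after the members.

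GC content was low at the summit itself and rose steeply beside it. In 51-bp windows 150 bp to the left and right, members at promoters had 44.7% and 45.8%. That was near their 44.6% and 43.9% at 1000 bp. The remaining members had 44.8% and 48.2% at 150 bp, against 41.2% and 39.8% at 1000 bp. Within 100 bp of the summit the members had 33.1% GC (SD 6.55, n = 200), with a range of 19.4 to 57.7%. The other IDR peaks had 34.8% (SD 7.42, n = 4536). In 51-bp windows the lowest mean was 27.3% for members at promoters and 28.5% for the remaining members, against 33.3% and 31.8% for the other IDR peaks of the same kinds. The summit had less GC than windows 500 bp to either side in 172 of 200 members (86.0%), in 81.4% of the others and in 81.6% of all IDR peaks. The mean difference from those flanks was -10.94 percentage points for the members and -9.09 for the others. The members between divergent promoters had 31.2% GC and those at other promoters 33.7%.

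The trough was narrow, so its depth depended on the window. The members had 5.17 points less GC than the other IDR peaks within 50 bp (a difference of -5.17) and 1.65 less within 100 bp (-1.65), but 1.63 more within 250 bp. In the replicates' own lists the 200 strongest peaks had 33.1% ± 1.47 GC within 100 bp and the weaker ones 35.6% ± 2.28, lower in 3 of 3 replicates, with a mean difference of -2.55 ± 0.883 points. The exact two-sided sign-flip test over 3 replicates gave p = 0.25. That is the smallest p this test can give with 3 replicates, so it cannot reach 0.05 for any difference reported here. Members ranked without replicate 1 had a difference of -1.05 points from the other IDR peaks in GC, against -1.65 by the full ranking, and of -0.949 in depth of the trough, against -1.85.

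**Figure D3:**
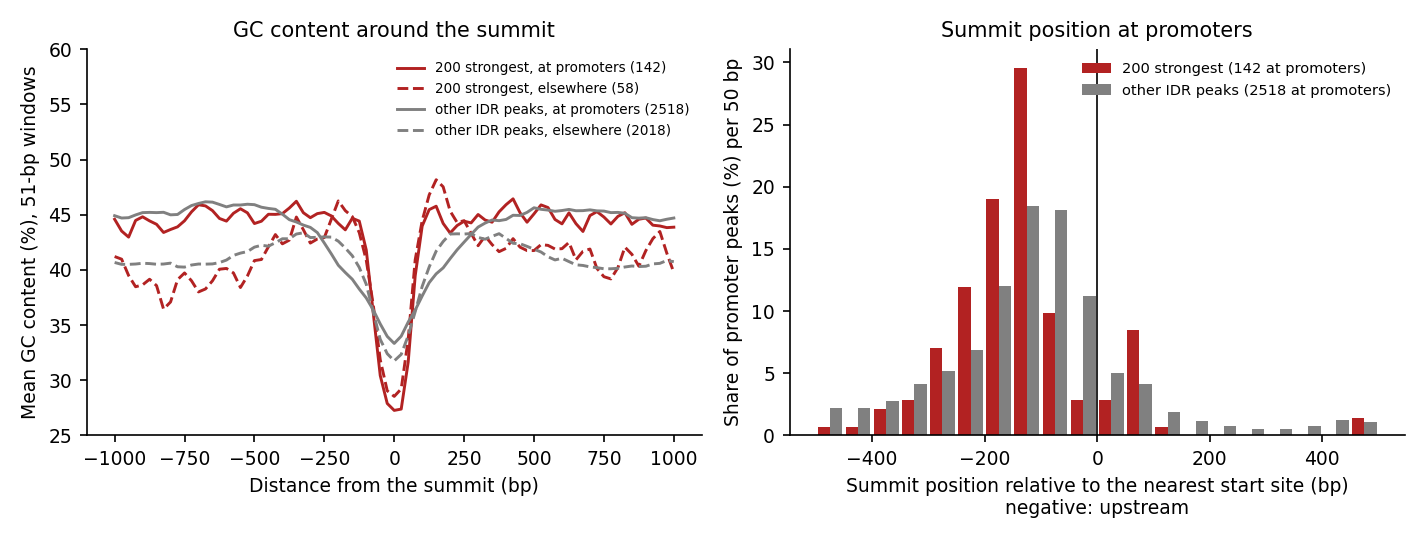
Left, mean GC content in 51-bp windows (y axis, %) by distance from the summit for the 200 strongest peaks (red) and the other IDR peaks (grey), at promoters (solid) and elsewhere (dashed), with a floor of 27.3% for the strongest at promoters. Right, share of promoter peaks per 50 bp by summit position relative to the nearest start site. The fullest bin of the strongest peaks, -150 to -100 bp, holds 29.6% of them and 18.4% of the others.

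Some words of A and T were also more frequent at the members. These counts too are descriptions with no test, since the words were picked from these same peaks. Of 8192 words of 7 bases counted within 100 bp of the summits, ATTAAAT had the largest gain in share. It was at 70 members (35%) and 885 others (19.5%). TATTAAA was at 59 members (29.5%) and 812 others (17.9%). The second largest gain was that of ACATTTA, which holds a C, at 42 members (21.0%) and 422 others (9.3%). Some words rich in A were rarer at the members. AAAAACA was at 23 members (11.5%) and 769 others (16.95%), and AAAAAAG at 20 (10%) and 646 (14.2%). Runs of 8 A were at 17.0% of members and 16.3% of others. Of the words with more G and C, ACAGTGG was at 30 members (15%) and 317 others (6.99%), and it holds CAGTGG. By ratio, among words held by at least 10 members, GGGCGTA led with 17 members (8.5%) and 48 others (1.06%). It is TACGCCC on the other strand and overlaps the element. AACCCCC followed, after 2 more words that overlap the element, with 12 members (6.0%) and 60 others (1.32%).

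Words that match known promoter sites showed smaller differences. They were counted at any distance from a TSS and also at the members away from promoters. So a match, the TATA box included, need not be a working promoter site. The TATA box, TATA followed by A or T, 2 A and a purine, was within 100 bp of 46 member summits (23.0%, 17.4 to 29.5%), 744 others (16.4%), 16.7% of all IDR peaks and 8.4% of windows of the same length that tile the large arms. The forkhead-type word TGTTTAC was at 20 members (10%), 284 others (6.26%), 6.42% of all IDR peaks and 3.82% of tiles. Its difference between members and others was 3.74 points, but 0.908 with the 400 strongest peaks as members and 1.17 within 50 bp of the summit. The DRE, TATCGATA, was at 3 members (1.5%), 195 others (4.3%), 4.18% of all IDR peaks and 0.55% of tiles. Its difference was -2.8 points, against -1.76 with members ranked without replicate 1 and likewise without replicate 2, and -1.21 with the 100 strongest. The core of Motif 1, GGTCACAC, was at 1 member (0.5%), 150 others (3.31%), 3.19% of all IDR peaks and 0.431% of tiles. All motifs were counted on both strands. The remaining motifs of the list were the repeat GAGAGAG, the word CGATA, the E-boxes CAGCTG and CACGTG, the Zelda word CAGGTAG, runs of 8 A, the repeat CACACACA, the CTCF core AGGGGGCGC, the Su(Hw) core TTGCATAC, and by name the full Motif 1, Motif 6, Motif 7, GATA, AP-1 and the CACC box. CGATA shares bases with the DRE, GAGAGAG with GAGAG, and Motif 1 with its core. Examples are shown with the motif in capitals, each from 1 strong member and on the + strand: the TATA box in an intron of Trl 11.5 bp from the summit, TGTTTAC between the promoters of Art3 and mRpS10 21.0 bp away, the DRE at the promoter of Atat 80.5 bp away, and the Motif 1 core in an intron of Csk 66.5 bp away.
Trl, chr3L:14759500-14759557: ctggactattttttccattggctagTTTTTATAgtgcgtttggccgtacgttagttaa
Art3, chr3R:15229483-15229539: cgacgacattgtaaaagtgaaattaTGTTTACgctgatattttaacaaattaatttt
Atat, chr3L:9426935-9426992: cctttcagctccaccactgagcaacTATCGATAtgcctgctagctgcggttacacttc
Csk, chr3R:11649695-11649752: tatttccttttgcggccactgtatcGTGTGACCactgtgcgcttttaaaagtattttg

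The same motifs were then counted in each replicate's own list. The TATA box was at 22.5%, 22.5% and 19.5% of the 200 strongest peaks of replicates 1, 2 and 3, against 17.2%, 16.6% and 13.96% of the weaker ones. The Motif 1 core was at 0.5%, 0.5% and 1.0%, against 2.07%, 3.9% and 3.48%. In both cases the groups did not overlap. The same held for other motifs of the list, among them the DRE, CGATA, Motif 7, TGTTTAC and the repeat CACACACA, so it does not set these apart. Of the 21 motifs in the list, 4 were more frequent in the strongest peaks of all 3 replicates and 13 were less frequent. Those 4 were the TATA box, TGTTTAC, the GAGA word GAGAG and the SOX-type word AACAAT. No motif fell under an exact sign-flip p of 0.25, and the smallest p adjusted over the 21 motifs by the Benjamini-Hochberg method was 0.309. GAGAG was at 45 members (22.5%) and 880 others (19.4%), but within 50 bp of the summit its share among members was lower than among the others by a difference of -0.481 points. Its difference of 3.1 points was 5.71 with members ranked without replicate 1, 2.06 without replicate 2 and 1.01 without replicate 3, so its size changed with the libraries that ranked the peaks. The TATA box difference was 6.6 points, against 3.99 with members ranked without replicate 1 and 0.326 with the 100 strongest peaks as members.

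Most members were at promoters, just upstream of the TSS. With a TSS within 500 bp, 142 of 200 members (71.0%, 64.2 to 77.2%) counted as promoter peaks, against 2518 others (55.5%) and 56.2% of all IDR peaks. A further 43 members (21.5%) were in introns, 13 (6.5%) between genes and 2 (1.0%) in exons without coding annotation. Of the other IDR peaks, 31.4% were in introns, 10.8% between genes and 0.86% in such exons. The 5′ UTR, coding exon and 3′ UTR classes held 0 of 200 members, for which the exact 95% interval reaches 1.83% each, and 24, 4 and 40 of the others. In the replicates' own lists the promoter share was 70.5%, 68.5% and 66.0% in the 200 strongest peaks and 52.95%, 58.5% and 54.5% in the weaker ones. It was higher in the strongest in 3 of 3 replicates, with a mean difference of 13.0 ± 3.99 points (SD, n = 3, exact sign-flip p = 0.25).

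Member summits at promoters were concentrated in a narrow range upstream of the TSS. The median member summit at a promoter lay at -141 bp, meaning 141 bp upstream, with quartiles of -201.5 and -100 bp. The other promoter peaks had a median of -108 bp and quartiles of -193 and -37 bp. Between 80 and 280 bp upstream were 104 of 142 member summits (73.2%), against 1239 of 2518 others (49.2%). This band was not among the planned measures. The 10% and 90% quantiles were -261.9 and 60.1 bp for the members and -318 and 67.3 bp for the others. Summits upstream of their nearest TSS made up 123 of 142 members (86.6%), 83.1% of the others and 83.3% of all promoter IDR peaks. In the replicate lists the upstream share was higher among the strongest in 2 of 3 replicates (difference 7.07 ± 8.08 points, exact sign-flip p = 0.5). This difference was 2.89 points without replicate 3 and 10.95 without replicate 1. With the 100 strongest peaks as members, the upstream share differed from that of the other IDR peaks by -4.83 points.

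Divergent promoters, where 2 protein-coding genes start away from each other at most 1000 bp apart, held 54 members (27.0%, 21.0 to 33.7%), 923 others (20.3%) and 20.6% of all IDR peaks. The gap between the TSSs was 278.5 bp at the median member, with a range of 52 to 906 bp, and 365 bp at the others. The member summits lay a median of 22 bp from the midpoint of the gap, against 58.5 bp for the others. Thus the summit at the promoter of Arl1 and brm, the ATPase of the Brahma remodelling complex, lay 10 bp from the midpoint, and that between Cp190, an insulator protein, and CG4338 lay 12.5 bp from it. In the replicate lists the divergent share was 26.0% ± 4.5 in the strongest and 19.05% ± 3.18 in the weaker peaks (difference 6.95 ± 2.25 points, higher in 3 of 3, exact sign-flip p = 0.25). Members ranked without replicate 1 had a difference of 4.04 points from the other IDR peaks, where the full ranking gave 6.65.

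The 58 members away from promoters were often near a TSS as well. Their median distance to the nearest TSS was 1276 bp (507 to 20110 bp), against 2182 bp for the other IDR peaks of that kind. A TSS lay within 1000 bp of 23 of the 58 (39.7%), against 23.6% of the others. The strongest in introns were in CG11050 (signal 4545), ush (4313) and Lk6 (3352), a kinase that acts on the translation factor eIF4E. The strongest between genes had signals of 2558 (place 21), 1877 (place 49, nearest to lncRNA:CR45643) and 1772 (place 57, nearest to lncRNA:CR45695). The 2 members in non-coding exons were in lncRNA:Vinr (3536) and in lncRNA:CR46035 (1386). The second of these RNAs lies within osa, which encodes a subunit of the Brahma complex, and no annotated exon of osa holds that summit.

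The member promoters included genes of 13 of the 23 gene lists counted. A TSS within 500 bp of a member summit was found for 187 of 13968 protein-coding genes (1.34%), and 244 (1.75%) had the summit there or within the gene. The gene lists below were chosen with earlier results of these data known, and their shares are given beside that background with no test. Mitochondrial ribosomal proteins had 6 of 73 genes (8.22%) with a member at the promoter, which were mRpL41 (signal 4036), mRpS10 (3417), mRpS23 (3000), mRpL23 (1951), mRpL24 (1214) and mRpL20 (1212). All of these summits lay between divergent promoters. At mRpS10, mRpS23, mRpL24 and mRpL20 the nearer TSS was that of the other gene, such as CenG1A at 110 bp against 382 bp for mRpS23. The cytosolic ribosomal proteins had 1 of 92 (1.09%), RpL34b. Translation factors had 2 of 54 (3.7%), eIF6, which keeps large ribosomal subunits free, and eIF4EHP, a cap-binding repressor. Oxidative phosphorylation (87 genes), the proteasome (48), aminoacyl-tRNA synthetases (32), general transcription (66), splicing (33), cell cycle (36), segmentation (34), the circadian clock (13), odorant and taste receptors (179) and cuticle (95) had 0.

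Of the lists of chromatin proteins, 3 had members, each with 1 to 2 genes at the promoter, where the share of all protein-coding genes was 1.34%, and with 3 genes in all, where it was 1.75%. Of 17 insulator protein genes, Chro (signal 2444) and Cp190 (1443) had a member at the promoter (11.8%) and Trl (3116), which encodes the GAGA factor, in an intron (17.6% in all). Of 21 Polycomb group genes, ph-p (3487) and E(z) (1123), a histone methyltransferase, had 1 at the promoter (9.52%) and Kdm2 (1595) within the gene (14.3% in all). Of 27 trithorax and remodelling genes, brm (1305) had 1 at the promoter (3.7%), and osa (1859 at place 51) and trx (1738) within the gene (11.1% in all). The summit at place 51 counted as a promoter peak of lncRNA:CR46036, lying 165 bp upstream of its TSS. The intronic member at place 17 (signal 2756) lay in HmgZ and HmgD, which encode HMG-box chromatin proteins and stand in no list. Dek itself had IDR peaks at places 1131 and 4333, and neither was a member.

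Of 28 nuclear receptor and ecdysone genes, Sox14 (signal 1841) and E23 (1675), both known ecdysone-response genes, had a member at the promoter (7.14%, against 1.34% of all protein-coding genes) and Hr3 (1579) within the gene (10.7% in all, against 1.75%). Chaperones had Fkbp14 (2879) and Hsp27 (1297) of 41 (4.88%) at the promoter. A list of 7 genes held GATA factors together with ush and its neighbour cbt. In it, cbt (1366) had a member at the promoter (14.3%) and ush within the gene (28.6% in all). These 2 summits were 1002 bp apart, and neither gene is itself a GATA factor. At the promoter were also Sesn (1484) of 23 insulin and TOR genes (4.35%), which had Lk6 within the gene as well, sgg (1118) of 44 signalling genes (2.27%), elav (1483) of 29 neural genes (3.45%) and Msp300 (1274) of 22 muscle genes (4.55%). Each of these shares rests on 1 or 2 genes.

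The members lay on 5 arms, with 49 on 2L, 34 on 2R, 32 on 3L, 50 on 3R and 35 on X, and 0 on 4 and Y. The others had 832, 879, 944, 1087 and 790 on the same 5 arms, and 4 on arm 4. No member had a transposable element within 100 bp of its summit (0 of 200, up to 1.83%), against 22 others (0.485%). Every 31-base word within 100 bp of the summit occurred once in the arms for 199 of 200 members. Only 10 members, in 5 pairs, had another member within 2000 bp. The pairs were ush with cbt, lncRNA:Vinr with lncRNA:CR44619 (999 bp), 2 summits at ph-p (582 bp), lncRNA:CR44149 with jp (1218 bp) and lncRNA:CR31840 with lncRNA:CR45352 (1741 bp).

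The signal that chose the members ran between 1065 and 4883 with a median of 1446, and the others between 163.9 and 1062 with a median of 259.2. This is the choice itself and no finding. Nearest to the limit, the members in places 198, 199 and 200 had 1070, 1070 and 1065, and the peaks just outside, at CG31808, SLC5A11 and Alg3, had 1062, 1052 and 1050. All 200 members were at the highest −log10 q in the list, 3.92, as were 3960 others. The median member was 385.5 bp wide, against 334 bp for the others.

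The members were near the top of each replicate's list, which is partly fixed because the pooled signal includes the same libraries. Their order within the top differed between replicates, as described further on. The median place of the members was 103.5, 100.5 and 100 in replicates 1, 2 and 3, out of 30000 peaks each, and that of the others 2448, 2505 and 2562. Among the 200 strongest peaks of the replicate were 160, 187 and 164 members, where 4.43%, 4.39% and 4.22% of all IDR peaks were. In all 3 replicates at once, 121 members were among the 200 strongest (2.55% of all IDR peaks), 69 in 2 replicates and 10 in 1. Outside the members, 0 of 4536 were among them in all 3 and 95 in at least 1. The summits of Gk1, a glycerol kinase, and CG7737 were in no peak of replicate 1, and that of the intronic Msp300 member (place 138) in none of replicate 3. For CG7737 replicate 1 had a summit 102 bp away at place 507.

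**Figure D4:**
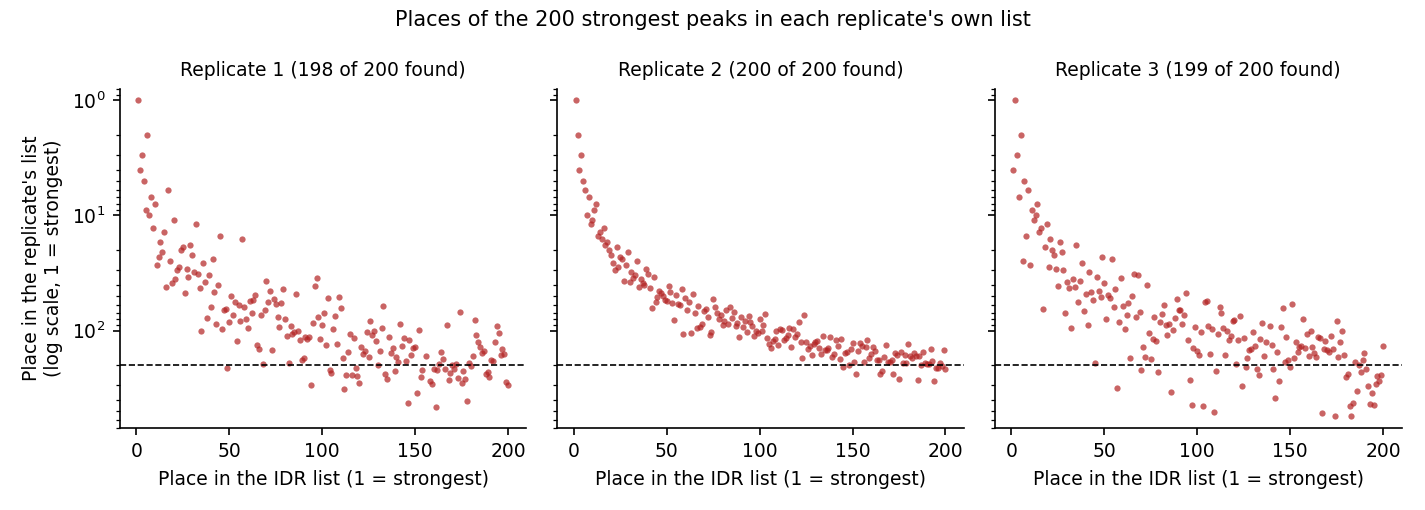
Place of each of the 200 strongest peaks in the list of each replicate (y axis, log scale, strongest at the top) against its place in the IDR list (x axis). The dashed line marks place 200. Replicate 2 has 187 of the points at or above the line, replicate 1 has 160 and replicate 3 has 164.

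Replicates 3 and 1 ordered the members differently, and the difference went with GC content. This relation was noticed in these data and is given as a description over peaks, which share libraries and are not replicates. Spearman's rho of GC content with log2 of the place in replicate 3 over that in replicate 1 was -0.451 over 197 members found in both, and -0.35 over 3875 others. For replicate 2 over replicate 1 it was -0.0914 in the members. In the 68 members with the least GC (19.4 to 29.9%), the median place was 72, 77.5 and 143 in replicates 1, 2 and 3. In the 66 with the most GC (35.8 to 57.7%), it was 120.5, 107 and 76.5. Members placed better in replicate 3 than in replicate 1 numbered 22 of the 68 with the least GC, 35 of the 63 in the middle and 50 of the 66 with the most. The width of the peak went with the same shift (rho 0.471), more than in the others (0.11). The depth of the replicates is unknown, and its part in these shifts was not tested.

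**Figure D5:**
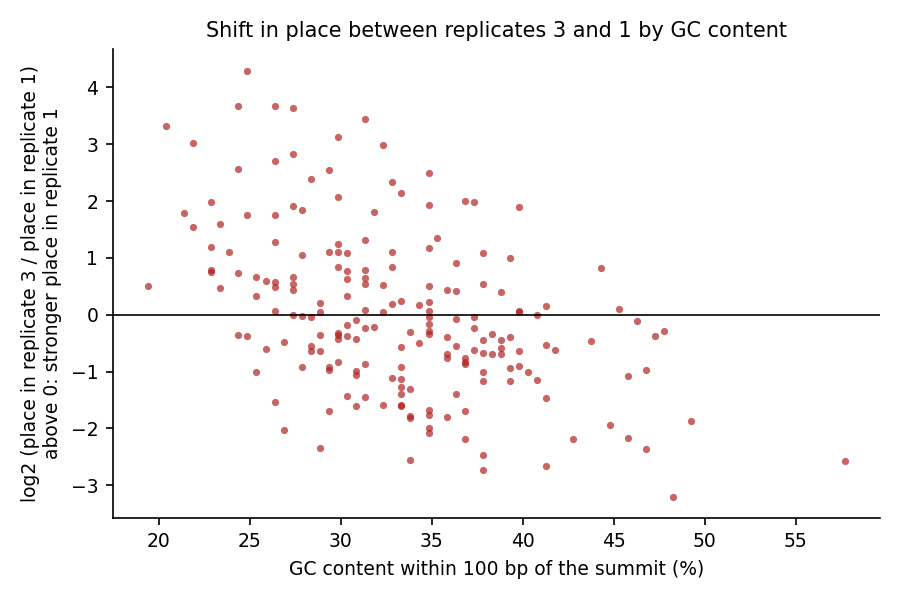
Log2 of the place in replicate 3 over the place in replicate 1 (y axis, above 0 meaning a stronger place in replicate 1) against GC content within 100 bp of the summit (x axis, %), 1 point for each of 197 members. Spearman's rho is -0.451.

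Single members show the size of these shifts. The member near lncRNA:CR45695, with 24.9% GC, was at place 16, 60 and 314 in replicates 1, 2 and 3, and Hrd3, with 26.4% GC, at 35, 111 and 445. In the other direction, the member near lncRNA:CR45643, with 48.3% GC, was at 211, 54 and 23, and moody, with 57.7% GC, the highest of all members, at 352, 186 and 59. The largest places of any member were those of simj (557), by (550) and CG6565 (519), all in replicate 3, with 21.9%, 32.8% and 29.4% GC. An intergenic member with 20.4% GC, whose nearest TSS was that of CG43245 at 19154 bp, was at 51, 100 and 512. MFS10, with 49.3%, was at 147, 110 and 40. Places of the members in replicates 1 and 2 had a rho of 0.764, in 2 and 3 of 0.7, and in 1 and 3 of 0.366.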

How the data were processed

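ChIP-seq peaks of 3 Dek-GFP embryo replicates, numbered as in the labels, were used as the authors deposited them, in narrowPeak lists on dm6. Per the deposited descriptions, a replicate's list came from its own alignments and 1 further file common to all lists, and the IDR list from the replicate lists and a pooled list. The labels name a possible control experiment, but whether the common file is a control library, against which the signal would then be set, is not stated. The deposited signal has no stated unit, and the deposited −log10 q was used to describe and to rank in an alternative. The summit comes from the deposited offset, a plain score in bases from the peak's start. Aligner, peak caller and IDR threshold were not given in the sources used here. Since the lists hold no read counts the depth is unknown.

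A member's place in a replicate was that of the strongest replicate peak holding its summit. Gene models were Ensembl release 115 and sequence RefSeq Release 6, both in dm6 coordinates, with TSSs of all annotated genes other than transposable elements. Classes were assigned in the order promoter, UTR or coding exon (5′ UTR first, 3′ UTR last), non-coding exon, intron, intergenic. Each replicate's 200 strongest peaks were compared with its weaker peaks down to place 4736 by an exact two-sided sign-flip permutation test. Intervals are exact Clopper-Pearson at 95%. Scripts were tested on simulated data. Python 3.11.15, numpy 2.4.6, scipy 1.17.1 and matplotlib 3.10.9 were used. Members, gene lists, motifs and tests were chosen with earlier results of these data known. Named genes were those at the 20 strongest members, the 3 strongest of each class other than promoter, the 3 worst placed and any absent member, up to 3 of each gene list, the GC extremes and those beside the limit. The mitochondrial ribosomal proteins were an exception, with all 6 named. The words, their direction, the GC relation and the uniqueness count were added after the data were seen, as were the genes named with them.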

Additional observations from a re-analysis of the deposited data

How the results depend on the processing

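No paired analysis was possible because all samples are 1 group, so no samples pair across groups; strong and weak peaks were instead compared within each replicate. The alternatives were the 100 or 400 strongest peaks, rows sharing an interval left out, ranking by −log10 q, members ranked without each replicate, and other windows. Ranking by −log10 q kept all 200 members, but they tie at its highest value with 3960 others, so the signal still chose them. Leaving out shared intervals kept the strongest row of each interval, and with it all 200 members. So neither alternative is a check on the choice of members, though their values are among those counted below. Ranking without replicates 1, 2 and 3 kept 181, 185 and 176. Of the recomputed values, 155 kept their direction and were within 1.5 times of the reported one, 33 kept it but differed by more, and 7 changed sign. With the 100 strongest peaks the upstream share of the members minus the others was -4.83 points (reported 3.54), and the replicate difference 1.63 (reported 7.07). With 250 bp either side of the summit, the GC difference was 1.23 points in the replicates (reported -2.55) and 1.63 for the members (reported -1.65), and the difference in depth of the trough 0.472 (reported -3.21) and 1.25 (reported -1.85). With 50 bp either side, these member differences were -5.17 and -5.04, and the replicate differences -6.0 and -6.45. GAGAG within 50 bp gave -2.02 points in the replicates (reported 2.99) and -0.481 for the members. With the 400 strongest, the replicate differences were 0.759 for GAGAG, 0.634 for TGTTTAC (reported 2.09) and 4.96 for the element (reported 8.66). The Motif 1 core within 50 bp gave -1.34 points for the members (reported -2.81). Without 1 replicate in turn, the member differences ranged between 13.9 and 17.1 points for promoters, 2.47 and 4.93 for upstream summits, 4.04 and 7.17 for divergent promoters, -1.98 and -1.05 for GC, and -2.39 and -0.949 for the trough. The replicate differences ranged between 10.8 and 14.5, 2.89 and 10.95, 5.67 and 7.8, -3.01 and -2.13, and -3.65 and -2.63 in the same order. The number of motifs higher in all replicates kept was 4 without replicates 1 or 2 and 7 without replicate 3 (reported 4). The element within 100 bp gave a difference of 6.34 points (reported 9.8). The cause of these changes was not tested. With 3 replicates and no read counts, depth could not be weighed, and no input library was analysed here.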
